A study of Mus musculus with 8 samples.

Results

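Kidney RNA sequencing of mice given bisphenol A (BPA) or vehicle was read here for 10 genes of the serum response factor (SRF), actin cytoskeleton and YAP programmes. They are Srf, Dapk3, Cyr61, Ctgf, Ankrd1, Vcl, Actb, Actg1, Acta2 and Tagln, each matched by its symbol to 1 of the 54532 genes in the deposited table. Srf, Dapk3 and Cyr61 were chosen by their lower FPKM values in BPA, so their difference between the groups is a description and carries no test. The other 7 were taken for their place in the same pathways. BPA is the building block of polycarbonate and binds estrogen receptors weakly. Both groups are kidney from ICR mice, an outbred stock, with polyadenylated RNA sequenced in 4 BPA libraries and 4 vehicle libraries. No genotype, sex, age, dose, route or duration of exposure was stated in the sources used here. Whether each library is a separate animal is not stated in the labels, and the p-values therefore measure only the spread between samples, which may be technical.

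SRF is a transcription factor that binds a short element called the CArG box. It works with 2 kinds of partner. The ternary complex factors, such as ELK1, couple it to ERK signalling and immediate early genes. The myocardin-related factors, encoded by Mkl1 and Mkl2, are held by free actin monomers and reach the nucleus when actin is drawn into filaments, and they turn on actins and adhesion proteins, including SRF itself. YAP and TAZ (encoded by Yap1 and Wwtr1) are coactivators restrained by the Hippo kinases, bind DNA through TEAD factors, and also respond to tension in the cytoskeleton. Cyr61 and Ctgf, now also called Ccn1 and Ccn2, encode secreted matricellular proteins and are textbook targets of YAP and of SRF. In kidney, contractile actin marks vascular smooth muscle and myofibroblasts, while podocytes and tubules depend on cytoplasmic actin.

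The upstream sequence of these genes was searched for the motifs of both programmes. RefSeq start sites of build GRCm38.p6 were at hand for 7 of the 10, and those of Ctgf, Actb and Tagln were not used here. Up to 250 bases before each start were searched on both strands for the CArG box and for the TEAD core GGAATG. The windows held 237 bases for Srf, 203 for Actg1, 248 for Dapk3 and 250 for the others. Among 32851 RefSeq windows of the full 250 bases, the CArG box was found in 1.47% and the TEAD core in 12.6%. Only the strict CArG box was counted, which is CC, then 6 letters that are A or T, then GG. In that form Srf, Vcl and Actg1 held the CArG box, and Cyr61, Ankrd1, Vcl and Acta2 held the TEAD core. The Acta2 window also held ccctatatgg and ccttgtttgg, each a single letter off the strict box, which were not counted. A gene without a counted box may thus hold a near match. Srf had 2 CArG boxes, as did only 6 of all windows. They began 82 and 62 bases upstream of its RefSeq start. Single boxes began 227 bases upstream in Vcl and 90 upstream in Actg1. A match is a description of letters, not of binding. The stretches below run 5′ to 3′ on the gene's strand up to the base before the RefSeq start, or before the deposited gene's start where that lies further upstream. Srf, Vcl and Actg1 are shown for their CArG boxes, Cyr61 for its TEAD core, and Dapk3 because it was low in BPA beside Srf and held neither motif. Capitals mark the motifs.
Srf promoter, chr17:46556176-46556412, minus strand: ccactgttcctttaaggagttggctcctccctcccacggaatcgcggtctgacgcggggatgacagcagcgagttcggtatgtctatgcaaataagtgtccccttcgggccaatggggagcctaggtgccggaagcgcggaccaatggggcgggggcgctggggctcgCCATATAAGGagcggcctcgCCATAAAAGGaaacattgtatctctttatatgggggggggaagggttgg
Vcl promoter, chr14:20929148-20929397, plus strand: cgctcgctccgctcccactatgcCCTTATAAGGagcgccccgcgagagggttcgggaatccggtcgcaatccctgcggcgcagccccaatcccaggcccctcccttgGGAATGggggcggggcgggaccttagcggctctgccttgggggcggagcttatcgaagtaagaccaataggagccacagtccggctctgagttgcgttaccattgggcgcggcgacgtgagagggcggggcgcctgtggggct
Actg1 promoter, chr11:120348543-120348745, minus strand: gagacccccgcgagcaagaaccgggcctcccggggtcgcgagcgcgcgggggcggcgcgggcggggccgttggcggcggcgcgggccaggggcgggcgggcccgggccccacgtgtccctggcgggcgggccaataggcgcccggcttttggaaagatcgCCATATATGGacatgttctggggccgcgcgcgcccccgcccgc
Cyr61 promoter, chr3:145649986-145650235, minus strand: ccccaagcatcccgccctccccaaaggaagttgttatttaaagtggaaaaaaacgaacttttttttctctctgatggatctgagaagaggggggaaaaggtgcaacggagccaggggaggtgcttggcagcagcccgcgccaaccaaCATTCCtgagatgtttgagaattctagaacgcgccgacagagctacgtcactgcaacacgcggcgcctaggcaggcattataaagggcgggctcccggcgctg
Dapk3 promoter, chr10:81182757-81183004, plus strand: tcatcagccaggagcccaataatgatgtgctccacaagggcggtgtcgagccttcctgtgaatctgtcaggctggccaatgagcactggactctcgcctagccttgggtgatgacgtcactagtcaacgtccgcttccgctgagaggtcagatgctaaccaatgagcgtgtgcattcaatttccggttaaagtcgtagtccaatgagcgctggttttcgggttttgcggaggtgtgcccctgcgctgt

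Values are FPKM, which corrects reads for gene length and sequencing depth, so levels of different genes can be compared. Libraries held 15944081 to 17351540 recovered reads. The proximal tubule markers, which define most of the kidney cortex, summed to 1540 to 2224 FPKM in every library. Vehicle replicate 4 stood apart: its skeletal muscle markers (11 genes) summed to 287 FPKM against 0.448 to 1.43 FPKM in the other libraries, and its adipocyte markers (8 genes) to 296 FPKM against 2.38 to 92.9 FPKM. BPA replicate 4 had the fewest genes above 0, 17174 against 19090 to 20845, and the highest share of mitochondrial reads, 14.2% against 7.02 to 9.85%. Podocyte and endothelial markers split the vehicle libraries, with podocyte sums of 54.8 and 55.5 FPKM in replicates 1 and 2 and of 18.8 and 14.8 FPKM in replicates 3 and 4. Endothelial markers split BPA by the same numbers, with sums of 60.1 and 72.6 FPKM in replicates 1 and 2 and of 30.5 and 33.2 FPKM in replicates 3 and 4. Podocyte sums did not split BPA that way (49.5, 64.3, 38.4 and 67.1 FPKM in replicates 1 to 4).

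**Figure D1:**
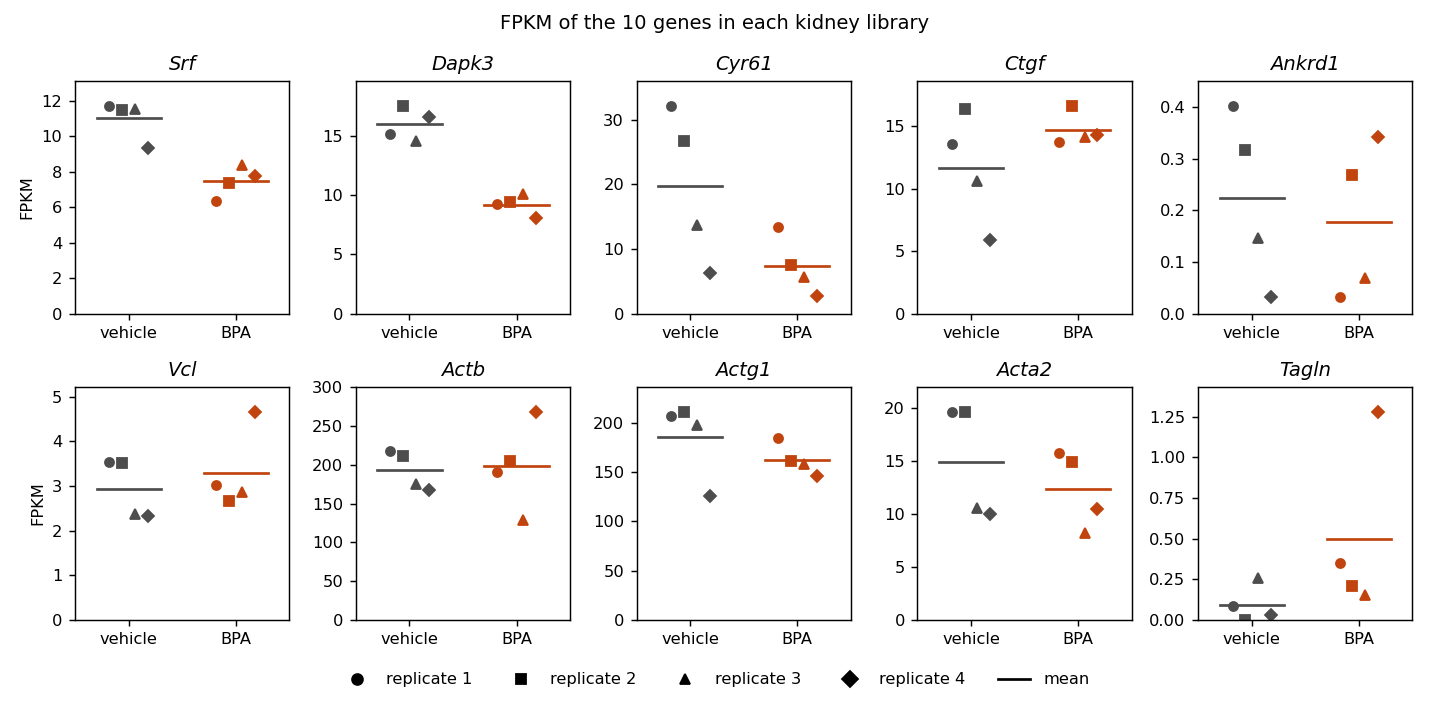
FPKM (vertical axes, from 0) of each of the 10 genes in the 4 vehicle and 4 BPA libraries, with marker shape for the replicate and a line for the group mean. Srf and Dapk3 do not overlap between the groups, whereas every other gene does.

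In vehicle, the cytoplasmic actins had the highest levels, with Actb at 193 ± 25.2 FPKM and Actg1 at 185 ± 39.98 FPKM (SD, n = 4), a difference within their spread. Cyr61 (19.7 ± 11.8), Dapk3 (16.0 ± 1.34), Acta2 (14.97 ± 5.403), Ctgf (11.6 ± 4.47) and Srf (11.01 ± 1.122 FPKM) followed, and neighbours in that order lay within their spread. Vcl stood lower at 2.94 ± 0.681 FPKM. Ankrd1 (0.225 ± 0.166 FPKM) and Tagln (0.0929 ± 0.117 FPKM) were close to the limit of detection. Testing required a mean of 0.5 FPKM or more over the 8 libraries, which 8 of the 10 genes reached. Ankrd1 and Tagln did not.

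The comparison of BPA with vehicle was tested gene by gene with limma on log2(FPKM + 1), adjusted by the Benjamini-Hochberg method over all 13376 genes above that filter. At an adjusted p under 0.05 it called 0 of the 5 members that were tested, beside 0.00748% of all tested genes (1 gene, which is no member). At an unadjusted p under 0.05 it also found 0 of these 5. Of the 5, 2 had a log2 change above 0 and 3 below 0, beside 48% and 52% of all tested genes. The groups did not overlap in Srf and Dapk3, both lower in BPA. Over all tested genes, 4.66% had every BPA library below every vehicle library and 3.23% had every BPA library above, and since these 2 genes were picked for low values, nothing is read from their count.

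Srf itself (ENSMUSG00000015605, chromosome 17, 46548329 to 46556175, minus strand) was at 11.7, 11.5, 11.5 and 9.34 FPKM in vehicle replicates 1 to 4. In BPA it was at 6.35, 7.37, 8.39 and 7.78 FPKM. The highest BPA value thus lay below the lowest vehicle value, and the mean was 32.1% lower in BPA. Its levels rested on 319 to 620 reads per library. The difference was -0.50 on the log2(FPKM + 1) scale. The Srf transcript has a GC content of 64.4%, higher than in 99.4% of tested genes, and GC content moved with the groups across the whole table. Among all tested genes, those with every BPA library below vehicle had a median GC of 55.7%, those with every BPA library above 43.0%, and all tested genes 49.7%. After each library was corrected for GC, the log2 difference of Srf was -0.22.

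The partners of SRF and the actin steps that feed them were compared as a list of 25 genes, of which 23 were tested. None was called by limma at an adjusted p under 0.05 (smallest adjusted p = 0.374), and an unadjusted p under 0.05 was reached by 2 with higher and 2 with lower values, beside 4.18% higher and 6.83% lower among all tested genes, shares against which the counts of the other lists are to be read too. In BPA 13 of them were higher and 10 lower, and the list's median log2 change was 0.08, against -0.01 over all tested genes. Mkl1, encoding the actin-sensing coactivator MRTF-A, averaged 2.05 ± 0.210 FPKM in vehicle and 1.73 ± 0.147 FPKM with BPA (limma adjusted p = 0.544). Its relative Mkl2 was at 2.47 ± 0.894 and 2.75 ± 0.179 FPKM. The ternary complex factors Elk1 (0.784 ± 0.174 and 0.897 ± 0.285 FPKM) and Elk4 (5.17 ± 0.359 and 5.05 ± 0.427 FPKM) also overlapped between the groups. Myocd, the myocardin gene of smooth muscle, was at 0.0848 FPKM or less in every library. The GTPase gene Rhoa was at 32.9 ± 2.86 and 33.9 ± 1.33 FPKM, and the kinase gene Rock1 at 10.3 ± 0.843 and 11.7 ± 1.54 FPKM.

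In this list the groups did not overlap in 2 of 23 tested genes, both with higher values in BPA, beside 3.23% of all tested genes. Scai, which encodes a suppressor of the MRTF and SRF complex, was at 1.69, 1.57, 1.53 and 1.61 FPKM in vehicle and at 2.08, 2.30, 2.30 and 2.06 FPKM in BPA (a log2 change of 0.29, SE 0.0918, limma adjusted p = 0.374). Diaph2, a formin gene, averaged 1.62 ± 0.290 FPKM in vehicle and 2.63 ± 0.729 FPKM with BPA (limma adjusted p = 0.403). Neither passed the test. Their transcripts have a GC content of 36.4% and 40.8%, below the median of all tested genes.

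Dapk3 (ENSMUSG00000034974, chromosome 10, 81183005 to 81193197, plus strand) encodes ZIPK, a death-associated kinase that phosphorylates the myosin light chain and its phosphatase subunit in smooth muscle. It was at 15.1, 17.5, 14.6 and 16.6 FPKM in vehicle and at 9.26, 9.38, 10.1 and 8.03 FPKM in BPA. The groups were well apart, and each had a narrow spread, with an SD of 1.34 and 0.856 FPKM. The mean was 42.5% lower in BPA, a log2 difference of -0.74. Replicates 1 and 2 alone gave -0.74, and replicates 3 and 4 alone -0.73. Dapk3 was picked for low BPA values in these same libraries, so nothing is read from that likeness. The transcript's GC content of 63.3% exceeds that of 99.1% of tested genes, and the difference was -0.48 after GC correction. On the opposite strand the gene 4930442H23Rik overlaps 8.37% of its exonic bases but was at 0.156 FPKM or less.

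Its kinase relatives and the myosin light chain machinery did not follow one direction. All 19 genes were tested, 11 had higher and 8 had lower values in BPA, and their median log2 change was 0.05. Limma called 0 at an adjusted p under 0.05, and 2, both lower, had an unadjusted p under 0.05. Dapk1 averaged 5.54 ± 1.71 FPKM in vehicle against 4.18 ± 0.397 FPKM in BPA, and Dapk2 at 0.983 ± 0.552 and 1.54 ± 0.525 FPKM. Pawr, which encodes the Par-4 protein that binds ZIPK, was at 30.9 ± 5.16 and 25.7 ± 2.14 FPKM (limma adjusted p = 0.496). The myosin light chain kinase gene Mylk was at 10.999 ± 4.62 and 11.1 ± 1.198 FPKM. The smallest p in the list belonged to Myl12b, a nonmuscle regulatory light chain at 1.013 ± 0.187 and 0.565 ± 0.206 FPKM (limma adjusted p = 0.415). Next came Ppp1r12c, a myosin phosphatase subunit at 6.80 ± 0.425 and 5.42 ± 0.912 FPKM (limma adjusted p = 0.432). Myl12b was the single gene of the list whose groups did not overlap, with every BPA library below vehicle, beside 4.66% of all tested genes.

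The cytoplasmic actins, which form the filaments of nearly every cell and are SRF targets, showed no difference beyond the spread between libraries. Actb was at 218, 212, 176 and 168 FPKM in vehicle and at 191, 205, 128 and 268 FPKM in BPA. BPA held both the lowest and the highest value, and the log2 change was -0.0041 (SE 0.217, limma adjusted p = 0.995). Without BPA replicate 3 it was 0.19, and after quantile normalization 0.11. Actg1 was at 207, 211, 197 and 126 FPKM in vehicle and at 185, 162, 159 and 146 FPKM in BPA. Its low vehicle value came from replicate 4, the library with muscle and fat transcripts. The log2 change was -0.16 (SE 0.183, adjusted p = 0.733) and -0.34 without that library (adjusted p = 0.609). Actb exceeded Actg1 in 3 of 4 libraries of each group, and their ratio reached 1.84 in BPA replicate 4, while replicate 3 of both groups had a ratio under 1. The coding sequences of Actb and Actg1 are 88.7% identical over 1128 bases, so how reads were divided between them is uncertain.

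Vcl, the gene of vinculin, which links adhesions to actin filaments, was at 3.54, 3.51, 2.37 and 2.33 FPKM in vehicle. In BPA it was at 3.01, 2.65, 2.87 and 4.65 FPKM. The highest value was that of BPA replicate 4, and the groups overlapped (log2 change 0.12, SE 0.176, limma adjusted p = 0.794). Without BPA replicate 4 the change was -0.02. The gene Ap3m1 on the opposite strand, at 6.16 to 10.4 FPKM, covers 25.5% of the exonic bases of Vcl, and no source used here says whether counting used strand, so the reads of that stretch are uncertain.

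Other genes of focal adhesions, the sites where actin is anchored to the matrix, had 17 of 26 tested members higher and 9 lower in BPA (median log2 change 0.13), and limma called 0 at an adjusted p under 0.05. An unadjusted p under 0.05 was reached by 4 with higher values and 1 with lower, beside 4.18% and 6.83% of all tested genes. The groups did not overlap in 2 higher genes and 1 lower gene, beside 3.23% and 4.66%. Without vehicle replicate 3 the list's median was 0.0338, without BPA replicate 4 it was 0.0371, and without vehicle replicate 4 it was 0.0597. Zyx, encoding the tension-sensing adhesion protein zyxin, was the lower one, at 10.4, 10.3, 9.35 and 10.4 FPKM in vehicle and at 6.97, 7.15, 5.78 and 6.85 FPKM in BPA. Its groups were clearly apart, yet it did not pass the adjusted test (log2 change -0.53, SE 0.0956, limma adjusted p = 0.271). Itga1, an integrin subunit for collagen, was at 4.72 ± 0.368 and 7.17 ± 2.03 FPKM without overlap (limma adjusted p = 0.387). Parva, an adhesion adaptor named after its values were seen, was the other gene with every BPA library above vehicle (10.8 ± 1.16 and 13.6 ± 1.98 FPKM, adjusted p = 0.432). GC content was 56.6% in Zyx, 42.8% in Itga1 and 47.0% in Parva, against a median of 49.7% over all tested genes. Over all pathway lists and members, 6 tested genes had every BPA library below vehicle (GC 52.2 to 64.4%) and 6 had every one above (36.4 to 54.2%). Talin (Tln1, 23.8 ± 1.67 and 24.2 ± 5.35 FPKM), paxillin (Pxn, 17.8 ± 2.96 and 14.2 ± 1.52 FPKM), Actn1 (2.93 ± 0.389 and 3.32 ± 0.767 FPKM) and Actn4 (41.7 ± 3.41 and 52.6 ± 22.4 FPKM) overlapped between the groups. Actn4, the podocyte and tubule alpha-actinin, was at 86.1 FPKM in BPA replicate 4 alone. Ilk, an adhesion kinase made in most cells, was listed at 0.0630 FPKM or less, and 76.7% of its exonic bases lie under Taf10 on the opposite strand, so a low listed value need not mean a silent gene.

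The wider list of SRF targets of the MRTF type had a median close to that of all tested genes. It had 22 tested genes, 14 with higher and 8 with lower values in BPA, a median log2 change of 0.02, and 0 called by limma at an adjusted p under 0.05. An unadjusted p under 0.05 was reached by 3, all lower, beside 6.83% lower among all tested genes. These were Zyx, Tuft1 and, named after its values were seen, Pdlim7. The groups did not overlap in 2 of the 22, Zyx and Pdlim7, both lower in BPA, beside 4.66% of all tested genes. Tuft1 was at 18.2 ± 4.70 and 11.6 ± 3.31 FPKM (limma adjusted p = 0.393). The nonmuscle myosin gene Myh9 averaged 15.6 ± 1.21 FPKM in vehicle against 16.0 ± 4.39 FPKM in BPA, the regulatory light chain gene Myl9 at 14.1 ± 5.63 and 16.4 ± 5.98 FPKM, and filamin A (Flna) at 5.46 ± 1.97 and 5.92 ± 1.42 FPKM. Targets of the ternary complex type numbered 8, with a median log2 change of -0.33 over all 8. The filter left 5, all with lower values in BPA (52% of all tested genes had a change below 0), and a median of -0.83. The filter bears on that median, since Fos, named after its values were seen, passed it through a vehicle mean of 1.82 FPKM, with 0.333 FPKM in BPA. Limma called 0 at an adjusted p under 0.05, and 3, all lower, had an unadjusted p under 0.05, beside 6.83% of all tested genes. Among them Nr4a1, an orphan nuclear receptor, was at 2.15 ± 0.673 and 0.796 ± 0.474 FPKM (limma adjusted p = 0.359) and Ier2, an early response gene, at 16.2 ± 1.70 and 11.6 ± 2.35 FPKM (adjusted p = 0.374). The difference between the 2 kinds of target was not tested.

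**Figure D2:**
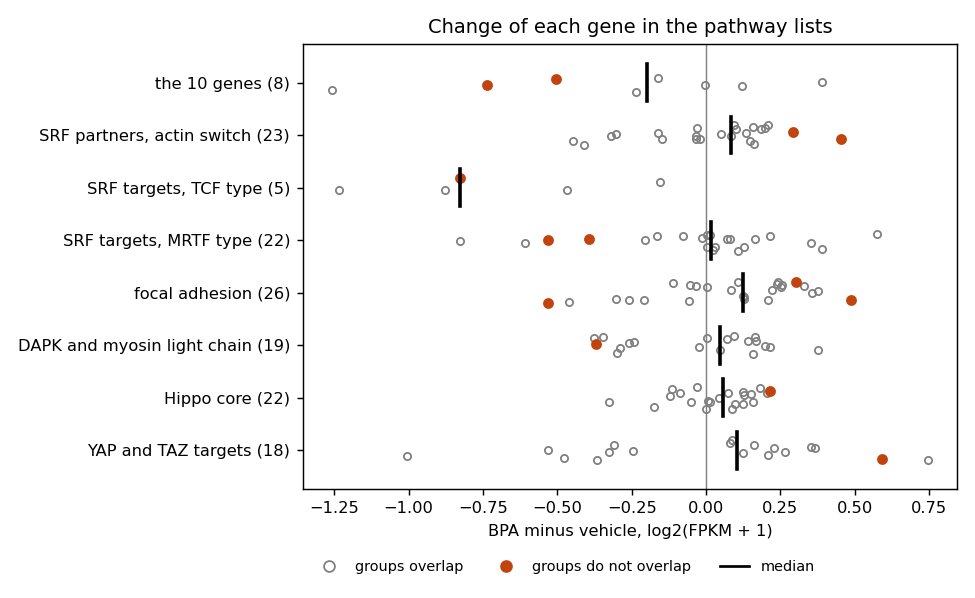
Log2(FPKM + 1) change, BPA minus vehicle (horizontal axis), of each tested gene in the pathway lists, with the number tested in parentheses and a black bar at the median. Filled points are genes whose groups do not overlap. The median of SRF targets of the ternary complex type (TCF) is -0.83 over the 5 tested and -0.33 over all 8. That of the 10 genes is -0.20 over the 8 tested. It includes Srf, Dapk3 and Cyr61, picked for low values in BPA, so nothing is read from it. The medians of the other lists lie between 0.02 and 0.13.

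Smooth muscle genes gave a mixed picture. Acta2, the smooth muscle alpha-actin, was at 19.7, 19.6, 10.6 and 9.99 FPKM in vehicle and at 15.8, 14.9, 8.17 and 10.5 FPKM in BPA. Replicates 1 and 2 of both groups were above replicates 3 and 4 of both groups, and the groups overlapped (log2 change -0.24, SE 0.280, limma adjusted p = 0.747). The other 7 smooth muscle markers summed to 31.9, 34.8, 20.4 and 21.1 FPKM in vehicle and to 25.01, 28.0, 22.5 and 28.5 FPKM in BPA. In vehicle they were high and low in the same libraries as Acta2, and in BPA replicate 4 they were not. The part of these markers in the Acta2 values was not tested. Of them, Des was at 6.03 FPKM in vehicle replicate 4, the library with skeletal muscle transcripts, against 1.53 to 2.87 FPKM in the others. In whole tissue, fewer cells of a type and less RNA per cell cannot be told apart. Myh11, the smooth muscle myosin, was at 2.84 ± 0.719 and 3.31 ± 0.971 FPKM, and Cnn1 (calponin) at 0.435 ± 0.256 and 0.450 ± 0.302 FPKM.

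Tagln, the gene of the actin-binding protein SM22, was barely detected. It had 3, 0, 8 and 1 reads in vehicle replicates 1 to 4 and 12, 7, 5 and 42 reads in BPA. As a floor of 3 counts, the 0 allows up to 0.0844 FPKM, and its exact 2-sided 95% Poisson interval reaches 3.69 reads. BPA replicate 4 gave most of the BPA reads. Summed over libraries, vehicle had 12 reads (exact 95% Poisson interval 6.20 to 21.0) and BPA 66 (51.0 to 84.0), or 24 over the 3 BPA libraries without replicate 4 (15.4 to 35.7). These intervals cover counting error only, and the gene was too low to test. Gm48529 and Pcsk7, on the opposite strand, cover 62.4% and 5.43% of its exonic bases, so its reads are uncertain as well.

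Other muscle actins were close to absent. Acta1 of skeletal muscle was at 103 FPKM in vehicle replicate 4 and at 0 in every other library. Actg2, of enteric smooth muscle, was at 0.740 FPKM in that library, at most 0.108 FPKM in the other vehicle libraries, and listed at 0 in BPA.

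Cyr61 and Ctgf are sister genes of the CCN family, and Cyr61 was chosen by its low values in BPA. Cyr61 (ENSMUSG00000028195, chromosome 3, 145646976 to 145649981, minus strand) was at 32.2, 26.8, 13.7 and 6.30 FPKM in vehicle and at 13.4, 7.51, 5.63 and 2.76 FPKM in BPA. Its values spanned a wide range within each group, the groups overlapped, and the mean was 62.9% lower in BPA. The log2 difference was -1.26, and replicates 1 and 2 alone gave -1.46, against -1.06 in replicates 3 and 4. Leaving out 1 library at a time gave -1.68 (without vehicle replicate 4) to -0.93 (without BPA replicate 4). Ctgf (ENSMUSG00000019997, chromosome 10, 24595442 to 24598683, plus strand) was at 13.6, 16.4, 10.6 and 5.94 FPKM in vehicle and at 13.7, 16.6, 14.1 and 14.3 FPKM in BPA. All 4 BPA values were above the vehicle mean, but the groups overlapped (log2 change 0.39, SE 0.254, limma adjusted p = 0.558). Without vehicle replicate 4 the change was 0.13 (adjusted p = 0.817).

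The ratio of Cyr61 to Ctgf in the same library is a description that holds the choice of Cyr61 within it. It was 2.36, 1.64, 1.30 and 1.06 in vehicle and 0.976, 0.451, 0.398 and 0.192 in BPA. Cyr61 was thus the more abundant of the pair in all 4 vehicle libraries and the less abundant in all 4 BPA libraries. No test is attached, and nothing about Ctgf is read from the ratio. Podocyte markers, from cells known to make Ctgf, summed to 14.8 to 55.5 FPKM in vehicle and 38.4 to 67.1 FPKM in BPA, and endothelial markers to 19.0 to 64.0 and 30.5 to 72.6 FPKM. In each of these lists all 6 genes had a higher mean in BPA, beside 48% of all tested genes with a log2 change above 0. In both lists 0 had groups that did not overlap, beside 3.23% of all tested genes with every BPA library above vehicle. Both sums were low in vehicle replicates 3 and 4. The part of these markers in the Ctgf and Cyr61 values was not tested.

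**Figure D3:**
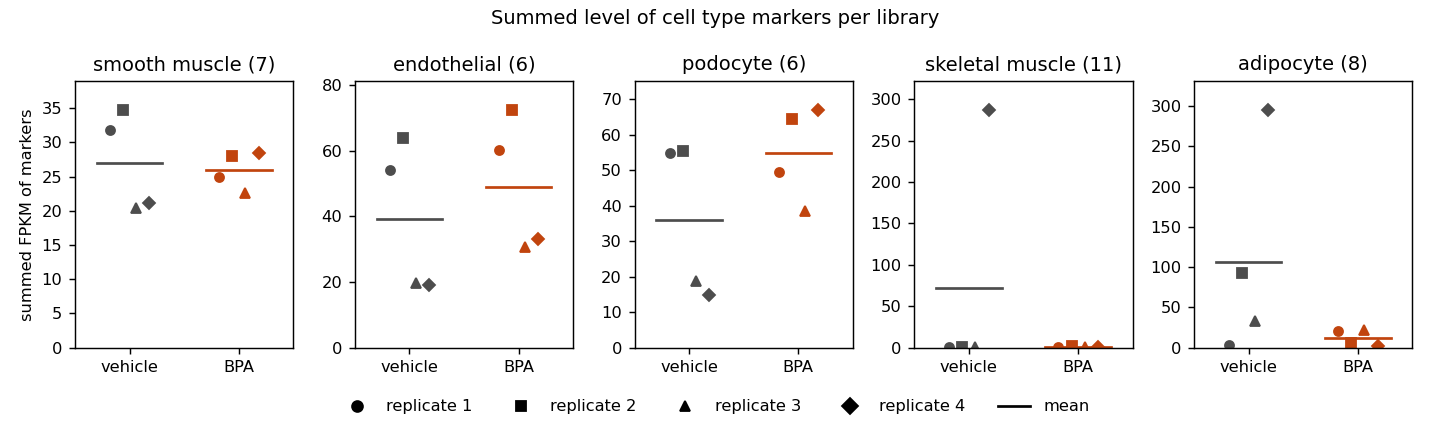
Summed FPKM of cell type markers (vertical axes, from 0; number of genes in parentheses) in each library, with the 10 genes left out of the sums. Vehicle replicate 4 alone carries skeletal muscle markers (287 FPKM), and vehicle replicates 3 and 4 are low in endothelial and podocyte markers. BPA replicates 3 and 4 are lower in endothelial markers than BPA replicates 1 and 2.

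Ankrd1, a nuclear cofactor of muscle and a YAP target with 2 TEAD cores in its promoter, was rare in kidney. It had 13, 10, 4 and 1 reads in vehicle and 1, 8, 2 and 10 in BPA. Those sums, 28 (18.6 to 40.5, exact 95% Poisson interval) and 21 (12.999 to 32.1), have overlapping intervals. Vehicle replicate 4, which carried skeletal muscle transcripts, had 1 read, and the skeletal muscle relative Ankrd2 was listed at 0 in all vehicle libraries. Of the other CCN genes, Nov was at 0.171 FPKM or less, and Wisp1 was at 0.640 ± 0.256 and 0.813 ± 0.180 FPKM (limma adjusted p = 0.692).

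Limma called none of the coactivators and kinases of the Hippo pathway. Yap1 averaged 8.20 ± 0.849 FPKM in vehicle against 7.47 ± 0.443 FPKM in BPA (a log2 change of -0.12, SE 0.0993, limma adjusted p = 0.648), and Wwtr1, which encodes TAZ, at 18.9 ± 0.893 and 19.2 ± 2.47 FPKM. The DNA-binding partner Tead1 was at 8.20 ± 2.38 and 7.28 ± 1.02 FPKM, and the kinase gene Lats2 at 2.85 ± 0.161 and 3.23 ± 0.688 FPKM. Of 22 tested Hippo genes, 14 had higher and 8 lower values; their median log2 change was 0.06 (-0.0059 without BPA replicate 4 and 0.0043 without vehicle replicate 4), and 0 were called by limma at an adjusted p under 0.05. The smallest p in this list were those of Taok1, an upstream kinase at 6.05 ± 0.346 and 7.20 ± 0.633 FPKM without overlap (adjusted p = 0.453), and of Vgll4, a TEAD corepressor at 3.14 ± 0.400 and 3.69 ± 0.204 FPKM.

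YAP and TAZ targets other than the members were divided. Of 18 tested, 11 had higher and 7 lower values in BPA (median log2 change 0.11, and 0.0148 without BPA replicate 4). Limma called 0 at an adjusted p under 0.05, and an unadjusted p under 0.05 was reached by 1 with higher and 2 with lower values. Axl, a receptor tyrosine kinase, was at 3.29, 2.99, 1.45 and 1.97 FPKM in vehicle and at 4.33, 4.05, 3.33 and 4.48 FPKM in BPA, with every BPA value above vehicle (log2 change 0.59, SE 0.186, limma adjusted p = 0.374). Nuak2, an AMPK-related kinase, was at 34.8, 40.5, 40.5 and 13.4 FPKM in vehicle and at 17.5, 13.9, 12.5 and 13.6 FPKM in BPA. There vehicle replicate 4 lay within the BPA range and the other vehicle libraries well above it (log2 change -1.004, SE 0.325, adjusted p = 0.374). Amotl2, an angiomotin that YAP induces, was at 10.04 ± 3.26 and 7.49 ± 0.781 FPKM (adjusted p = 0.568).

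**Figure D4:**
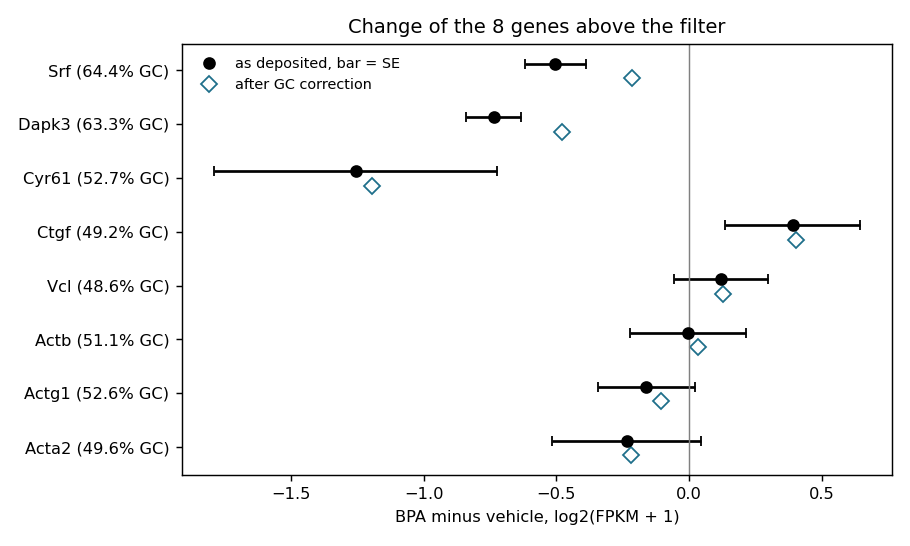
Log2(FPKM + 1) change, BPA minus vehicle (horizontal axis), of the 8 genes above the filter, as deposited (filled, bar = SE) and after correction for GC content (open), with each transcript's GC content. The correction moves Srf from -0.50 to -0.22 and Dapk3 from -0.74 to -0.48, and the other 6 by less than their SE.

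How the genes varied within a group was read from the deviation of each library from its group mean, which leaves the contrast out. Srf deviated by -0.21 to 0.15 log2 units and Dapk3 by -0.17 to 0.13. Cyr61 ranged from -1.28 in vehicle replicate 4 to 0.95 in BPA replicate 1. Acta2 was above its group mean in replicates 1 and 2 of both groups (0.30 to 0.44) and below it in replicates 3 and 4 (-0.50 to -0.17). Cyr61 had the same signs as Acta2 in all 8 libraries, Ctgf in 7, Actb and Actg1 in 6, Dapk3 and Vcl in 5, and Srf in 3. How many of all tested genes share these signs was not counted. Vcl and Actb shared their highest deviation in BPA replicate 4 (0.42 and 0.48).

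**Figure D5:**
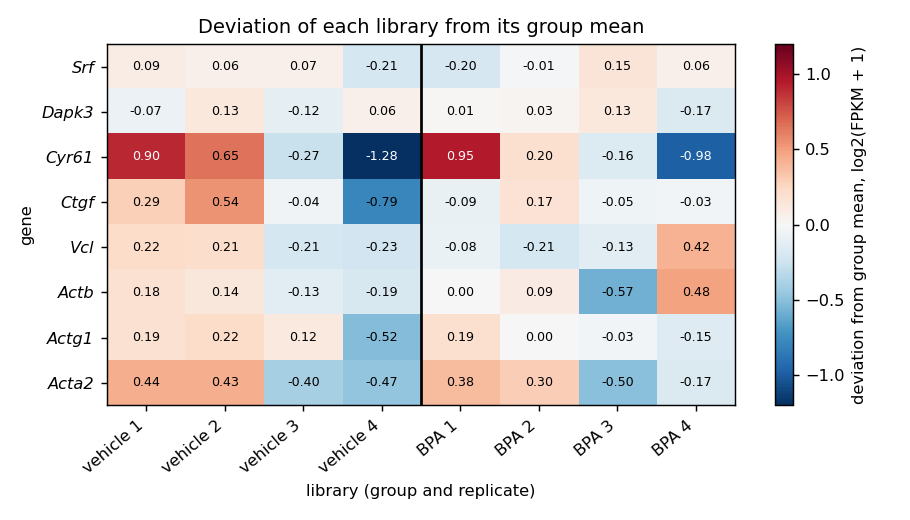
Deviation of each library from its group mean in log2(FPKM + 1) (color and printed value) for the 8 genes above the filter (rows) in the 8 libraries (columns, vehicle left of the line). Cyr61 and Acta2 are positive in replicates 1 and 2 and negative in replicates 3 and 4 of both groups, while Srf stays between -0.21 and 0.15.

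The genes whose deviations over the 8 libraries were most like those of Srf were Plekhh1 (Pearson r = 0.961), Tmem150c (0.956), Tex2 (0.942), Rp2 (0.931) and Cebpg (0.925). They are the 5 highest of all tested protein-coding genes with an ordinary symbol, so high values are built into their choice and no p is given. Of the 5, Cebpg had a lower mean in BPA (8.54 and 7.16 FPKM) and the other 4 a higher one, unlike Srf.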

How the data were processed

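The authors deposited FPKM values for 54532 genes, with coordinates and gene lengths. The submitters' processing notes name DESeq2 1.20.0 and GRCm38 without their roles. For the aligner, read counter and strand setting, the sources used here give nothing. Whole reads were recovered from FPKM and gene length, since 100% of low values (up to 20 reads) were whole to within 0.01 reads. Columns named for BPA match those libraries. The remaining 4, a letter with a number, were assigned to vehicle because the labels have no further group.

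Limma 3.58.1 (R 4.3.3) was fitted to log2(FPKM + 1) with trended, robust variance over genes with a mean of at least 0.5 FPKM. This scale understates changes of low genes. GC content came from the longest GENCODE M21 transcript (99.9% of tested genes) and was corrected by lowess. Actin coding identity came from global alignment of the longest reading frames (Biopython 1.88). On simulated data with 13376 genes, limma recovered 52.2% of genes changed 2-fold and 92.5% of those changed 4-fold, and called 12 unchanged ones. The simulation gave every gene the same relative spread and held no GC shift and no outlying library. These shares are therefore not the power of the comparison in the real libraries.

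The members and lists were chosen with earlier results of these data known, so no list was tested as a set. Named genes are the members, a preset set of partners and targets and the 2 smallest p in each list. The 5 genes most like Srf were named too. Any other gene of the lists was named after its values were seen, which for Wisp1, Des and Ilk is said only here. Alternatives covered pseudocount, filter, scaling, library weights, limma-voom on recovered reads, GC, a block for the replicate number, and omission of each library. Other steps ran in Python 3.11.15 with scipy 1.17.1.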

Additional observations from a re-analysis of the deposited data

Results flagged for a closer look

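Vehicle replicate 4 lay far from the other vehicle libraries in 2 of the 20 groups of 4 examined (10 genes in each group). Srf was at 9.34 FPKM there against 11.5, 11.5 and 11.7 FPKM, and Actg1 at 126 FPKM against 197, 207 and 211 FPKM. In each case the gap to the nearest other library, 0.910 and 0.841 of the range, exceeded Dixon's 95% critical value for 4 samples. Chance gives such a gap in about 1 in 20 groups. The same library carried skeletal muscle and fat transcripts, whose part in these values was not tested. Without it the log2 difference between BPA and vehicle was -0.57 for Srf and -0.34 for Actg1.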

How the results depend on the processing

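The causes of the differences below were not tested. Among the 22 alternatives, the 5 tested members were not called under any that tested them (lowest adjusted p = 0.374, Acta2 with a term for replicates 1 and 2 against 3 and 4). Srf, Dapk3 and Cyr61 were lower in BPA under all 22, with log2 differences of -0.61 to -0.22, -0.80 to -0.48 and -1.68 to -0.93. These genes were picked for low BPA values in the same libraries, so nothing is read from the kept sign. The sign of Vcl turned with library weights (-0.0442), without both replicates 4 (-0.0937) and without BPA replicate 4 (-0.0183), and leaving out 1 library gave up to 0.195. That of Actb turned after rescaling to a common total (0.0139), quantile normalization (0.11), GC correction and the replicate block with GC correction (0.0328 each). It also turned when vehicle replicate 1 (0.0562), vehicle replicate 2 (0.0426) or BPA replicate 3 (0.187) was omitted, and with 1 library omitted the lowest value was -0.165 (without BPA replicate 4). Without both replicates 4 it was -0.229. The number of genes called by limma among all tested was 1, and 8 with library weights (1871 at an unadjusted p under 0.05), 2 with the term for replicates, 0 by limma-voom on recovered reads (1527), 0 among protein-coding genes only (1349), 0 with the replicate block (1376) and 0 with the replicate block and GC correction (1039). It ran from 0 to 4 when 1 library was left out, with 1073 to 1688 at an unadjusted p under 0.05. Same-numbered libraries of the groups had deviations correlated at -0.03 to 0.14, and 2 of 4 vehicle libraries correlated best with their own number. With so few libraries, these values cannot tell whether same-numbered libraries belong together. The median of SRF targets of the ternary complex type, -0.83, was -1.47 and -1.08 with pseudocounts of 0.1 and 0.5, -0.33 without a filter, -0.31 at a mean of at least 5 FPKM (2 genes) and -1.65 by limma-voom, and ran from -0.91 to -0.53 when 1 library was left out. The median of SRF partners was 0.0092 at a mean of at least 5 FPKM, 0.0265 with library weights and 0.0016 without both replicates 4, and 0.0143 to 0.0599 with 1 library left out. That of YAP and TAZ targets was -0.29 at a mean of at least 5 FPKM (8 genes). Without both replicates 4 the medians were -0.0203 for YAP and TAZ targets, -0.0326 for Hippo genes, -0.0648 for the myosin light chain list and -0.0099 for focal adhesion. The myosin light chain median was -0.0406 with library weights and -0.0430 to 0.0792 with 1 library left out. The median of SRF targets of the MRTF type stayed between -0.02 and 0.09. Ankrd1 and Tagln, with 1 to 13 and 0 to 42 reads per library, rested on few reads.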

Other observations

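Some genes of the myosin, focal adhesion and SRF partner lists lay outside the range of the other 7 libraries in BPA replicate 4. They were picked after their values were seen and stand for no class of genes. How many of all tested genes did so was not counted. Of the members, Actb, Vcl and Tagln were also highest in that library, and Dapk3 and Cyr61 lowest. Myl6, the essential myosin light chain, was at 25.03 FPKM against 56.8 to 85.5 FPKM in the others, Myl12a at 2.68 against 5.67 to 8.42 FPKM, and the GTPase gene Rhoc at 21.6 against 39.1 to 57.7 FPKM. Actn4 was at 86.1 FPKM against 37.6 to 44.9 FPKM, Myh9 at 22.5 against 13.2 to 16.8 FPKM, and Tln2 at 17.5 against 5.99 to 11.7 FPKM. Other genes of the same lists lay within the range, such as Rhoa (35.3 against 30.4 to 35.8 FPKM), Myl9 (9.32 against 7.78 to 22.6 FPKM) and Pxn (16.1 against 12.5 to 20.53 FPKM). Igfbp3, also named after its values were seen, is a YAP target that encodes a secreted binding protein of insulin-like growth factors. It was at 62.2, 69.0, 28.2 and 21.4 FPKM in vehicle and at 107, 99.7, 51.3 and 39.0 FPKM in BPA. The groups overlapped, and replicates 1 and 2 were above replicates 3 and 4 in both groups (limma adjusted p = 0.534).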
